A study of Mus musculus with 6 samples.

Results

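The genes described here are the Wnt ligands, their Frizzled receptors, the secreted and membrane inhibitors of the pathway, and the genes by which the pathway limits its own output. They were taken by symbol: all rows named Wnt, Fzd, Sfrp or Dkk with a number, plus Axin2, Lef1, Tcf7, Nkd1, Nkd2, Rnf43, Znrf3, Notum, Lgr5, Apcdd1, Kremen1 and Wif1. This gave 49 of the 24413 genes in the deposited table. These genes and the further lists below were chosen with earlier results of these data known, which limits any count set against all genes. The samples were W-EGFP cells, which the labels call interstitial cells of the testis, from FLE-EGFP mice at E16.5, known as a line in which a fetal Leydig enhancer of Nr5a1 drives EGFP. Per the labels, 10000 cells a sample stayed for 1 hour in 0.5 µM SAG, an agonist of the Hedgehog transducer Smoothened, or in its vehicle DMSO, with 3 libraries of each. The column names of both groups also carry the element siCnt, which the labels do not explain. The comparison asked which transcripts differ when Smoothened is activated.

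Wnt proteins are lipid-modified secreted signals that bind Frizzled receptors together with the co-receptors Lrp5 and Lrp6, or with receptors such as Ror2. In the canonical branch the signal stops the breakdown of beta-catenin, which then works with the DNA-binding factors of the TCF and LEF family. Axin2, Nkd1, Znrf3, Rnf43, Notum, Lgr5 and Apcdd1 are known to be induced by this branch in many tissues, and most of them then dampen it. Sfrp proteins and Wif1 bind Wnt ligands outside the cell, and Dkk1 with Kremen1 removes the co-receptors from the surface. In the gonads, Wnt4 with Rspo1 is best known for the female pathway, and Wnt5a is a ligand of mesenchymal cells that often acts without beta-catenin.

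Values are the deposited signal, which is reads normalized for depth, and each ± is the SD of n = 3 libraries. Depth differed by group: it was 18486396 to 25491259 reads per library with DMSO but only 7694479 to 8804335 with SAG, so that 1 read is a signal of 0.0414 to 0.0564 with DMSO and of 0.106 to 0.128 with SAG. EGFP was present in every library, at 90.5 to 113 with DMSO and 111 to 134 with SAG, as was Nr5a1, at 117 to 124 and 98.8 to 108, and neither was called. Tests are limma on log2(signal + 1) over the 12550 genes whose signal averaged 1 or more, and a gene is called when its p, adjusted over all of them by Benjamini and Hochberg, is under 0.05. The log2 scale with 1 added understates the change of low genes. Over all tested genes 29.6% were called, 12.9% as higher and 16.6% as lower with SAG, and the groups did not overlap for 48.0%. Rescaling every library to the same total instead gave 2477 higher and 1259 lower calls in place of 1625 and 2084, and moved the median log2 fold change from -0.03 to 0.10 over the tested genes. Spike-in reads also split by group, with 0 in each DMSO library and 111, 54 and 1205 in SAG replicates 1 to 3. Depth and spike-in reads thus both followed treatment, so a difference in preparation or sequencing cannot be told apart from one made by SAG. Its part in the changes below was not tested. SAG replicate 3 stood apart from the other SAG libraries, with 1.67% of its reads on Rn45s against at most 0.360% elsewhere. No label says whether replicates were separate cultures or animals, so the p-values measure the spread between these samples only.

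Of the 49 genes, 31 passed the filter on low values, and 7 of these rose and 8 fell with SAG, 15 of 31 against the 29.6% called over all genes. The median log2 fold change of the 31 was -0.07, against -0.03 over all tested genes. The groups did not overlap for 19 of the 31, against 48.0% of all genes. The genes that rose were Wnt4, Wnt5b, Wnt6, Fzd1, Sfrp1, Dkk3 and Nkd1, and those that fell were Wnt5a, Wnt10b, Wnt16, Fzd5, Fzd6, Fzd7, Sfrp2 and Axin2. Both directions therefore occurred among ligands, receptors, secreted inhibitors and feedback genes alike. Wnt6 passed the filter through its SAG libraries alone. Of the 18 genes under the filter 8 had no read in any library. Just inside the filter stood Wnt6 and Wnt5b with mean signals of 1.59 and 2.10 over the 6 libraries, and just outside it Dkk2 and Notum with 0.811 and 0.223. RNA here comes from the whole sample, so fewer cells of a kind and less RNA per cell cannot be told apart.

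**Figure D1:**
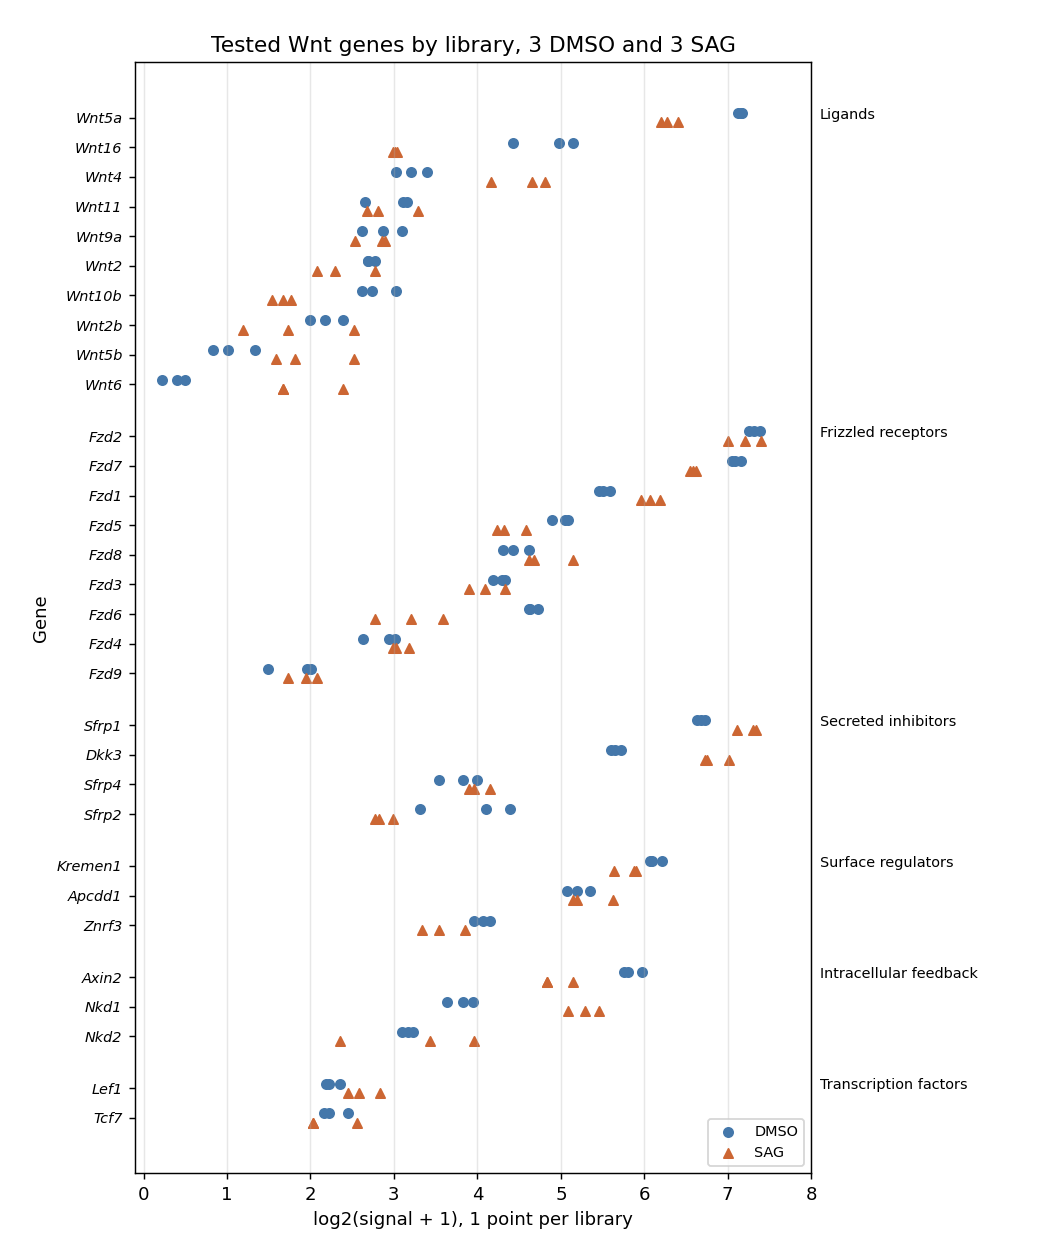
Signal of the 31 tested genes in each library, as log2(signal + 1), by role in the pathway, with DMSO as circles and SAG as triangles. Wnt5a, Wnt16, Fzd6 and Axin2 have all 3 SAG libraries below all 3 DMSO libraries, while Wnt4, Dkk3 and Nkd1 have them above.

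Wnt5a was the most abundant ligand gene per length and fell with SAG. Its signal was 142, 138 and 142 in DMSO replicates 1 to 3 and 72.4, 83.9 and 76.3 in SAG replicates 1 to 3, so that every SAG library lay well below every DMSO library. It was 1.82-fold lower (log2 fold change -0.86, SE 0.10; limma, adjusted p = 3.50e-04). The gene spans chr14:28504750-28527448 (GRCm38, plus strand).

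Wnt16, a ligand best known from bone and joint tissue, had the largest decrease of the 31 tested members. It stood at 30.6, 34.3 and 20.6 with DMSO and at 6.92, 7.10 and 7.19 with SAG. The DMSO libraries were spread, with replicate 3 lowest, whereas the SAG libraries lay within a narrow range far below them. The mean was 4.03-fold lower (log2 fold change -1.84, SE 0.19; limma, adjusted p = 1.72e-04). The gene spans chr6:22288227-22298522 (plus strand).

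Wnt10b, a canonical ligand known for restraining fat cell formation, also fell. Its signal was 5.67, 7.16 and 5.13 with DMSO and 2.42, 1.91 and 2.18 with SAG, with no overlap. The difference was 2.76-fold (log2 fold change -1.13, SE 0.19; limma, adjusted p = 0.00268), on 91 to 155 reads per DMSO library and 17 to 22 per SAG library.

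Wnt4 rose and took the place of the second ligand. It stood at 9.57, 7.12 and 8.23 with DMSO and at 16.9, 24.3 and 27.0 with SAG, all SAG libraries being higher than all DMSO libraries. The mean rose 2.73-fold (log2 fold change 1.33, SE 0.19; limma, adjusted p = 0.00114). Without SAG replicate 3, which had the highest Wnt4 signal, the log2 fold change was 1.20 and the call was kept. The gene spans chr4:137277489-137299726 (plus strand).

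Wnt6, a ligand known mostly from epithelia, rose from near the detection limit. DMSO replicates 1 to 3 held 10, 7 and 3 reads and SAG replicates 1 to 3, though shallower, 20, 40 and 17. In signal this was 0.414, 0.324 and 0.169 against 2.197, 4.24 and 2.18, a 9.50-fold rise of the mean (log2 fold change 1.54, SE 0.27; limma, adjusted p = 0.00296). Wnt5b, the closest relative of Wnt5a, moved opposite to it on few reads. Its signal was 1.53, 0.786 and 1.02 with DMSO and 2.53, 2.01 and 4.75 with SAG, with SAG replicate 3 highest (log2 fold change 0.92, SE 0.28; limma, adjusted p = 0.0374). The call of Wnt5b was lost without DMSO replicate 1, 2 or 3 or SAG replicate 1 or 3 (limma, adjusted p from 0.0547 to 0.132) and with the deeper libraries thinned to the shallowest (0.0730).

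The other tested ligand genes were not called. Wnt2 stood at 5.84, 5.45 and 5.47 with DMSO and 5.82, 3.92 and 3.21 with SAG, and Wnt2b at 2.98, 3.51 and 4.23 against 4.72, 2.33 and 1.28. Wnt9a and Wnt11 were at 6.34 ± 1.22 and 6.94 ± 1.45 with DMSO and at 5.82 ± 0.913 and 6.72 ± 1.78 with SAG. In each of these 4 genes the groups overlapped, and the adjusted p from limma ran from 0.249 to 0.889. Wnt7b had 10, 0 and 4 reads with DMSO and 0, 0 and 0 with SAG, Wnt1 had 0, 0 and 0 against 5, 1 and 0, and Wnt10a had a single read in SAG replicate 3. Wnt3, Wnt3a, Wnt7a, Wnt8a, Wnt8b and Wnt9b had no read in any of the 6 libraries, which allows a signal of up to 0.124 to 0.385 per library (3 reads, counting error only).

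Divided by exon length, so that genes can be compared, the ligand transcripts changed in their makeup. The 19 ligand genes summed to 35.8 ± 1.67 signal per kb with DMSO and 26.1 ± 1.29 with SAG, and to 34.1 ± 1.38 and 27.4 ± 1.09 after rescaling by library total. Wnt5a held 48.6%, 49.2% and 53.3% of this sum in DMSO replicates 1 to 3 and 37.5%, 40.3% and 36.0% in SAG replicates 1 to 3. Wnt16 went from 18.2% ± 4.09 to 6.21% ± 0.193 of the sum. Wnt4 went from 5.53% ± 0.706 to 20.6% ± 3.82, and Wnt6 from 0.504%, 0.412% and 0.226% to 4.06%, 7.26% and 3.68%. With DMSO the order was led by Wnt5a and Wnt16 (6.54 ± 1.63 per kb), with Wnt2 and Wnt4 following at 2.48 ± 0.0965 and 1.98 ± 0.292. With SAG it was led by Wnt5a and Wnt4 (5.42 ± 1.24 per kb), and Wnt2, Wnt9a, Wnt11 and Wnt16 stood together between 1.62 and 1.91, within their spread.

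**Figure D2:**
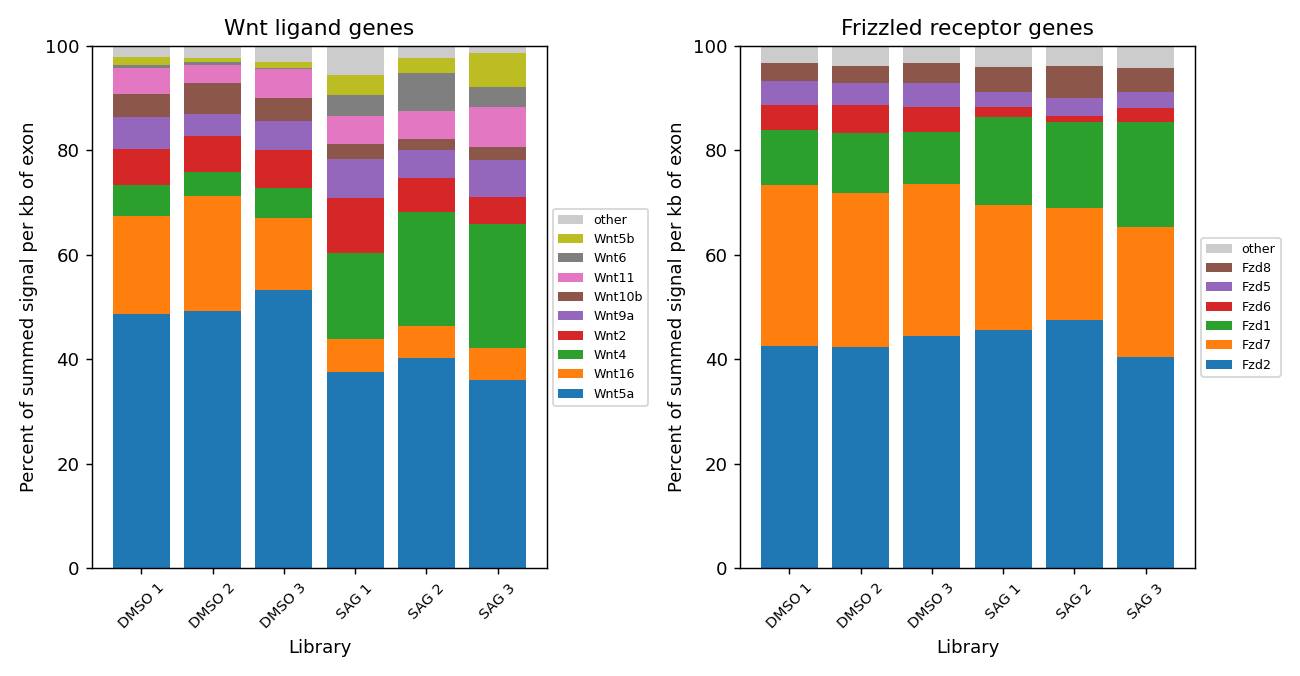
Makeup of the Wnt ligand genes (left) and the Frizzled genes (right) in each library, as the percent of the summed signal per kb of exon. Wnt4 widens from 5.53% to 20.6% and Wnt16 shrinks from 18.2% to 6.21% of the ligand sum, while Fzd1 widens from 10.6% to 17.7% of the receptor sum.

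Among the Frizzled genes, which encode the membrane receptors for Wnt proteins, 3 of 9 tested fell and 1 rose, where 16.6% and 12.9% of all tested genes did. Fzd6, a receptor known for planar cell polarity, fell the most. It stood at 23.5, 25.6 and 23.8 with DMSO and at 8.24, 5.83 and 11.0 with SAG, 2.90-fold lower with no overlap (log2 fold change -1.47, SE 0.20; limma, adjusted p = 8.39e-04). The gene spans chr15:39006034-39038188 (plus strand).

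Fzd7, the second most abundant Frizzled gene per length, was at 142, 131 and 135 with DMSO and at 95.2, 92.9 and 97.4 with SAG. The libraries of each group lay close together, and the mean was 1.43-fold lower (log2 fold change -0.51, SE 0.09; limma, adjusted p = 0.00344). Fzd5 stood at 33.0, 28.7 and 32.1 against 17.8, 22.9 and 19.0, which is 1.57-fold lower (log2 fold change -0.63, SE 0.14; limma, adjusted p = 0.00779). Fzd1 went the other way, from 44.5, 47.3 and 42.9 to 61.5, 65.9 and 71.9, a 1.48-fold rise with no overlap (log2 fold change 0.55, SE 0.11; limma, adjusted p = 0.00509).

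Fzd2, the most abundant Frizzled gene per length, was not called. Its signal was 158, 152 and 167 with DMSO and 146, 167 and 127 with SAG, with groups that overlapped (limma, adjusted p = 0.462). Fzd8 was at 20.6, 18.7 and 23.6 with DMSO and 24.6, 34.4 and 23.6 with SAG, and was called as higher only without SAG replicate 3 (limma, adjusted p = 0.127 with all libraries and 0.00856 without it, the highest of its alternatives being 0.345). Fzd3, Fzd4 and Fzd9 overlapped between groups, with means of 18.3, 6.32 and 2.57 with DMSO and of 16.3, 7.38 and 2.79 with SAG. Fzd10 had 1 read with DMSO and 3 with SAG over 3 libraries each. The summed receptor signal per kb was 101 ± 2.21 with DMSO and 89.8 ± 5.34 with SAG, but 95.8 ± 2.55 and 94.4 ± 7.98 after rescaling by library total. Within it Fzd2 held 43.1% ± 1.15 and 44.5% ± 3.71, Fzd7 29.8% ± 0.916 and 23.5% ± 1.87, and Fzd1 10.6% ± 0.768 and 17.7% ± 1.97.

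Of the 10 genes for secreted inhibitors only Sfrp1, Dkk3, Sfrp4 and Sfrp2 passed the filter. Sfrp1, a soluble protein with a Frizzled-like domain that binds Wnt ligands, rose from 97.8, 105 and 101 to 161, 156 and 137. Every SAG library exceeded every DMSO library, and the mean rose 1.50-fold (log2 fold change 0.57, SE 0.10; limma, adjusted p = 0.00325). Dkk3, a secreted Dickkopf relative that, unlike Dkk1, is not known to bind the Lrp co-receptors, rose more, from 47.6, 49.3 and 51.7 to 107, 128 and 105. This was 2.28-fold with no overlap (log2 fold change 1.17, SE 0.11; limma, adjusted p = 1.23e-04).

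Sfrp2, a close relative of Sfrp1, fell. It stood at 8.94, 20.0 and 16.2 with DMSO and at 6.04, 5.83 and 6.94 with SAG, with DMSO replicate 1 near the SAG libraries. The mean was 2.40-fold lower (log2 fold change -1.08, SE 0.25; limma, adjusted p = 0.0119), and the call was lost without DMSO replicate 2 (0.0547) or 3 (0.0578). Sfrp4 overlapped, at 12.9 ± 2.17 and 15.1 ± 1.49 (limma, adjusted p = 0.340). Dkk2 had 33, 17 and 28 reads with DMSO and 1, 0 and 8 with SAG and was not tested. Wif1, Notum, which encodes an enzyme that strips the lipid from Wnt proteins, and Dkk1 had at most 5 reads in any library, and Sfrp5 and Dkk4 had none.

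None of the genes for surface regulators was called with all libraries. Kremen1, which encodes a Dickkopf receptor, stood at 67.2, 66.1 and 73.3 with DMSO and at 57.9, 48.9 and 58.7 with SAG. Znrf3, which encodes a ubiquitin ligase that removes Frizzled from the surface, stood at 16.8, 15.8 and 14.6 against 9.12, 13.5 and 10.7. In both genes the SAG libraries lay below the DMSO libraries without overlap, and the limma adjusted p was 0.0599 and 0.0509. Without SAG replicate 3 both were called as lower (limma, adjusted p = 0.00264 and 0.0194). Kremen1 was also called with the deeper libraries thinned to the shallowest (0.0424), and Znrf3 without SAG replicate 2 (0.0213) and with the filter at a mean signal of 5 (0.0493). Over the other alternatives the adjusted p reached 0.256 for Kremen1 and 0.172 for Znrf3. Apcdd1, which encodes a membrane inhibitor of Wnt signalling, overlapped at 36.0 ± 3.59 and 39.4 ± 7.65. Rnf43, the paralog of Znrf3, had 1 read in all 6 libraries together and Lgr5, a receptor for R-spondins, had 2.

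**Figure D3:**
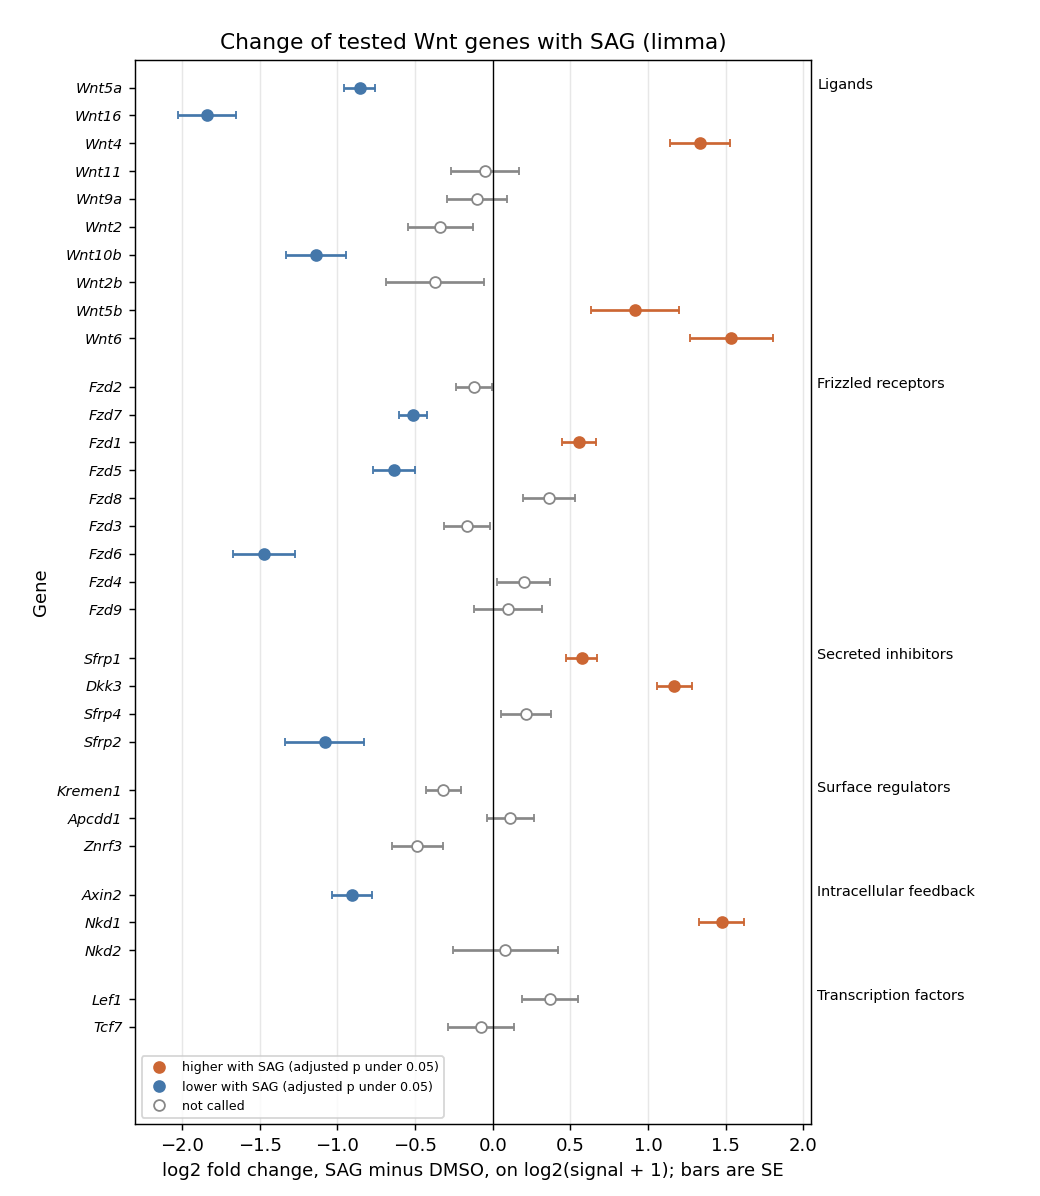
Log2 fold change of the 31 tested genes, SAG minus DMSO on log2(signal + 1), with SE as bars, from limma. Filled points are the 7 genes called as higher and the 8 called as lower, and open points were not called. Changes run from -1.84 (Wnt16) to 1.54 (Wnt6).

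The intracellular feedback genes Axin2 and Nkd1 moved in opposite directions. Axin2, a scaffold of the complex that destroys beta-catenin and the most widely used readout of canonical signalling, was at 61.5, 53.2 and 55.0 with DMSO and 34.3, 27.5 and 27.6 with SAG. Nkd1, which binds Dishevelled proteins and limits their action, was at 14.5, 13.2 and 11.4 with DMSO and 33.0, 43.0 and 38.0 with SAG. Neither gene showed overlap between the groups. The log2 fold change was -0.91 (SE 0.13; limma, adjusted p = 9.75e-04) for Axin2 and 1.47 (SE 0.15; limma, adjusted p = 1.48e-04) for Nkd1. Per kb of exon Axin2 went from 10.3 ± 0.800 to 5.41 ± 0.702 and Nkd1 from 2.86 ± 0.338 to 8.34 ± 1.10, so that their order was exchanged. Nkd2, the paralog of Nkd1, was at 7.54, 8.37 and 8.01 with DMSO and at 9.78, 14.5 and 4.11 with SAG. Its SAG libraries lay on both sides of the DMSO libraries (limma, adjusted p = 0.876), and without SAG replicate 3 it was called as higher (log2 fold change 0.53; limma, adjusted p = 0.0171, against at most 0.989 over its alternatives).

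The DNA-binding effectors were low and were not called. Lef1 stood at 4.10, 3.56 and 3.67 with DMSO and at 6.15, 4.45 and 5.01 with SAG (limma, adjusted p = 0.154), with SAG above DMSO in every library. Tcf7 stood at 3.48, 3.65 and 4.46 against 3.08, 4.87 and 3.08 and overlapped.

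The starts of a few of these genes are shown. Axin2 and Nkd1 were taken because both are known as beta-catenin targets and moved apart, and Wnt16 because it had the largest decrease. Wnt5b was taken because, of the called members that could be searched, it alone had a TCF/LEF core before a start. Windows of 300 bases, from 250 before to 50 after each start, were taken from RefSeq on GRCm38.p6. They matched 32 of the 49 genes, with 40 windows. The 17 genes without a window, which were not searched, include the called genes Wnt5a, Fzd6, Sfrp1 and Dkk3. Searched on both strands were ATCAAAG, a core of TCF and LEF sites, and ACCACCC, a core of the sites bound by the Hedgehog effectors of the GLI family. No match of one overlapped a match of the other. The first was found in 2 of the 40 windows (Wnt5b and Wnt11) and in 3.73% of all 32851 windows. The second was found in 3 of the 40 (Lef1, Wnt10b and Wnt8b) and in 4.61% of all windows. Below are the 250 bases before the start, 5′ to 3′ on the strand of the gene, in lower case with a match in capitals.
Axin2, chr11:108920099-108920348, plus strand: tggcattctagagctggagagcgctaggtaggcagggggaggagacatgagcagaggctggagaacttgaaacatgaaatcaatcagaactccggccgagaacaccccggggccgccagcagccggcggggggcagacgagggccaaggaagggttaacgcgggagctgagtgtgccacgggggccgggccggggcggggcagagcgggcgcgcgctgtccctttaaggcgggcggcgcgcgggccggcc
Nkd1, chr8:88527383-88527632, plus strand: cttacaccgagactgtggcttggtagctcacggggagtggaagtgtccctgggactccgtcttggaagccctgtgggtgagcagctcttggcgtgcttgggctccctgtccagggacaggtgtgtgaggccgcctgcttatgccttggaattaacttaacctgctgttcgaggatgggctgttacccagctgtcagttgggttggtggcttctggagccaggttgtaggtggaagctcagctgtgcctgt
Wnt16, chr6:22287977-22288226, plus strand: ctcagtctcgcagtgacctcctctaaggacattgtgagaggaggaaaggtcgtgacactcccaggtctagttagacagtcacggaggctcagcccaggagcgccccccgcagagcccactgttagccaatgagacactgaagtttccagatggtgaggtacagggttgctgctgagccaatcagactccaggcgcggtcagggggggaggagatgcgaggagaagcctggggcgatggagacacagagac
Wnt5b, chr6:119449387-119449636, minus strand: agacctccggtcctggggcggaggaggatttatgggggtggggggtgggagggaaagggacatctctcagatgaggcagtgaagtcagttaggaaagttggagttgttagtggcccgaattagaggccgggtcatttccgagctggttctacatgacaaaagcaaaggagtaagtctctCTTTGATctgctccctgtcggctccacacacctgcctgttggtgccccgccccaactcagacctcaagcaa
The Wnt5b window belongs to 1 of its 3 annotated starts, and the match in capitals begins 71 bases before that start, on the opposite strand. The Nkd1 start of RefSeq lies inside the GENCODE gene, which begins at 88521354. The windows differ in base composition: 69.2% of the Axin2 bases are G or C with 24 CG pairs, against 58.4% with 6 pairs for Nkd1, 59.2% with 9 for Wnt16 and 55.6% with 7 for this start of Wnt5b. Neither motif is present in the printed windows of Axin2, Nkd1 and Wnt16, which says only that these letters do not occur in those 250 bases.

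Several members lie next to each other in the genome. Wnt6 and Wnt10a are 6193 bases apart on chromosome 1 in the same orientation, and Wnt6 rose while Wnt10a had a single read. Wnt10b and Wnt1 are 11706 bases apart on chromosome 15 and point away from each other, with Wnt10b lower and Wnt1 at 6 reads in all. Of the pairs Wnt3a with Wnt9a and Wnt9b with Wnt3, both on chromosome 11, only Wnt9a was detected. Kremen1 and Znrf3, 14765 bases apart on chromosome 11, were the pair of surface regulators whose SAG libraries all lay below DMSO. Among the called members, exons of Wnt5a, Fzd5, Fzd6, Sfrp2 and Axin2 overlap an antisense gene in GENCODE M21. Among the other pathway and target genes named below those of Rspo3, Tcf7l1, Tle1, Tle2, Ctnnb1, Dvl2, Tnks, Invs, Vangl1, Ccnd1 and Fst do. The library kit keeps the strand, but the strand setting of the counting is not given in the sources used here. Reads from such a partner thus cannot be told apart from those of the gene itself. Wisp1 had no single entry under that symbol in GENCODE M21, so its overlaps were not checked.

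The rest of the pathway was described from a list of 64 other genes, of which 55 were tested. With SAG 14 rose and 5 fell, against 12.9% and 16.6% of all genes, and the median log2 fold change was 0.07 against -0.03. Cthrc1, a secreted protein that favours binding of Wnt to Frizzled and Ror2, fell 3.25-fold, from 77.5, 83.4 and 79.6 to 29.4, 20.8 and 23.8 (log2 fold change -1.67, SE 0.14; limma, adjusted p = 5.43e-05). Its gene lies 38743 bases from Fzd6 on chromosome 15, and both fell. Trabd2b, which encodes a protease that inactivates Wnt proteins, fell 2.26-fold, from 77.3, 85.8 and 91.0 to 42.1, 43.2 and 27.4.

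The R-spondin gene Rspo3, whose product protects Frizzled from Znrf3 and Rnf43, rose from 2, 1 and 9 reads in the DMSO libraries to 39, 32 and 23 in the shallower SAG libraries (log2 fold change 1.92, SE 0.25; limma, adjusted p = 6.71e-04). Lgr6, which encodes an R-spondin receptor, rose from 1.41, 1.25 and 2.65 to 5.27, 5.72 and 4.75, while its relative Lgr4 was at 72.3 ± 0.852 and 83.8 ± 6.64 and not called. Sostdc1, a secreted inhibitor of Wnt and BMP signals, had 4, 0 and 0 reads with DMSO and 20, 33 and 14 with SAG (log2 fold change 1.70, SE 0.26; limma, adjusted p = 0.00157). Rspo3 and Sostdc1 passed the filter through their SAG libraries alone. Frzb, the Sfrp-type inhibitor that the Sfrp symbols leave out, rose 1.85-fold, from 32.8, 32.0 and 42.0 to 60.7, 57.9 and 79.1. Reck, a membrane protein needed for Wnt7 signals, rose 1.69-fold, from 24.8 ± 1.25 to 41.8 ± 1.11.

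Of the listed receptors and planar polarity genes that work without beta-catenin, Ror2, Prickle1, Daam2 and Celsr1 rose. Ryk, Ptk7, Vangl1, Vangl2, Prickle2, Celsr2, Daam1, Invs and, with all libraries, Ror1 were not called, and Celsr3 was under the filter. Ror2, a receptor for Wnt5a, rose 1.59-fold, from 63.4, 62.8 and 60.4 to 93.4, 104 and 100.1 (log2 fold change 0.66, SE 0.10; limma, adjusted p = 0.00126). Its ligand gene Wnt5a fell in the same libraries. Prickle1, a planar polarity gene, rose 1.82-fold, from 30.9 ± 0.717 to 56.0 ± 6.74, and Daam2, which links Dishevelled to actin, rose 1.66-fold, from 33.5 ± 2.48 to 55.8 ± 6.55. Ror1, the paralog of Ror2, stood at 22.6, 26.2 and 23.9 with DMSO and 15.7, 20.4 and 8.61 with SAG and was not called with all libraries (limma, adjusted p = 0.0543). It was called as lower without SAG replicate 2 (0.0176) or 3 (0.0143), with a replicate block (0.0184) and with DESeq2 (0.0431), and over the other alternatives the adjusted p reached 0.159.

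Ctnnb1, which encodes beta-catenin, the hub of the canonical branch, was not called, at 710 ± 8.49 with DMSO and 660 ± 34.0 with SAG (log2 fold change -0.11, SE 0.09; limma, adjusted p = 0.405). Lrp5 and Lrp6 were at 94.4 ± 1.49 and 117 ± 5.19 with DMSO and at 111 ± 10.2 and 125 ± 5.68 with SAG and were not called. Wls, which carries Wnt proteins to the surface, was 1.22-fold lower, at 314, 317 and 329 against 286, 246 and 255 (limma, adjusted p = 0.0462), a call that 10 of 16 alternatives lost. Among the nuclear factors Tcf7l1, known mainly as a repressor, rose 1.60-fold, from 44.9 ± 1.32 to 71.7 ± 17.0 (limma, adjusted p = 0.0179). This call was lost without DMSO replicate 1, 2 or 3 or SAG replicate 1 (0.0573 to 0.0721). Tcf7l2 overlapped at 10.1 ± 1.66 and 12.1 ± 1.25. Tle1, a co-repressor that binds TCF factors, rose 1.56-fold, from 50.4 ± 1.83 to 78.6 ± 13.2, and Dact3, which restrains Dishevelled, 1.87-fold, from 109 ± 13.0 to 205 ± 59.5 with SAG replicate 3 highest. The called genes that complete the counts of this list, named only for that and after their values were seen, were Apc and Tnks, which fell, and Dvl2, Tle2 and Celsr1, which rose.

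Genes reported elsewhere as targets of beta-catenin also went both ways. The list held 27 symbols outside the members, of which 26 had a row in the deposited data. Of these, 18 were tested, and 7 fell and 4 rose, against 16.6% and 12.9% of all tested genes. The median log2 fold change was -0.11 against -0.03. The matricellular gene Wisp1 fell 1.76-fold, from 557, 546 and 560 to 347, 327 and 271 (log2 fold change -0.82, SE 0.11; limma, adjusted p = 7.87e-04). Ccnd1, the G1 cyclin, fell 2.18-fold, from 31.9, 30.8 and 35.3 to 16.3, 14.3 and 14.4. The hyaluronan receptor gene Cd44 fell 2.15-fold, the Notch ligand gene Jag1 2.58-fold, Enc1 1.72-fold, and Vcan, a matrix proteoglycan, 1.91-fold. In each of these the SAG libraries lay below all DMSO libraries. Fst (follistatin, an activin trap) went from 8.16, 3.70 and 6.77 to 1.43, 0.212 and 2.18, 4.87-fold lower and 7.57-fold lower without SAG replicate 3.

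The target genes that rose were Id2, Bambi, Ppard and Mitf. Id2, an inhibitor of bHLH factors, rose 1.69-fold, from 68.1, 69.9 and 76.5 to 126, 117 and 120.0, and Bambi, a BMP pseudoreceptor, 1.66-fold, from 35.5 ± 2.50 to 58.9 ± 9.33. Ppard (limma, adjusted p = 0.0330) lost its call without any 1 of the DMSO libraries or SAG replicate 1 or 2 (0.0570 to 0.121), without a filter (0.0515) and without the mean trend (0.0517). Mitf (0.0488) lost it without DMSO replicate 1 or 2 or SAG replicate 1 or 2 (0.0706 to 0.177), with pseudocounts of 0.5 (0.0504) and 0.1 (0.0538), without a filter (0.0613) and with edgeR (0.0656). Its fold was 2.197 with all libraries and 3.32 without DMSO replicate 3. Myc, which is not named by the rule for called genes, was at 38.4 ± 3.18 and 31.5 ± 2.91 and was not called. Sp5, T, Cdx1 and Cdx2, targets of strong canonical signalling in the embryo, had no read in any library.

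**Figure D4:**
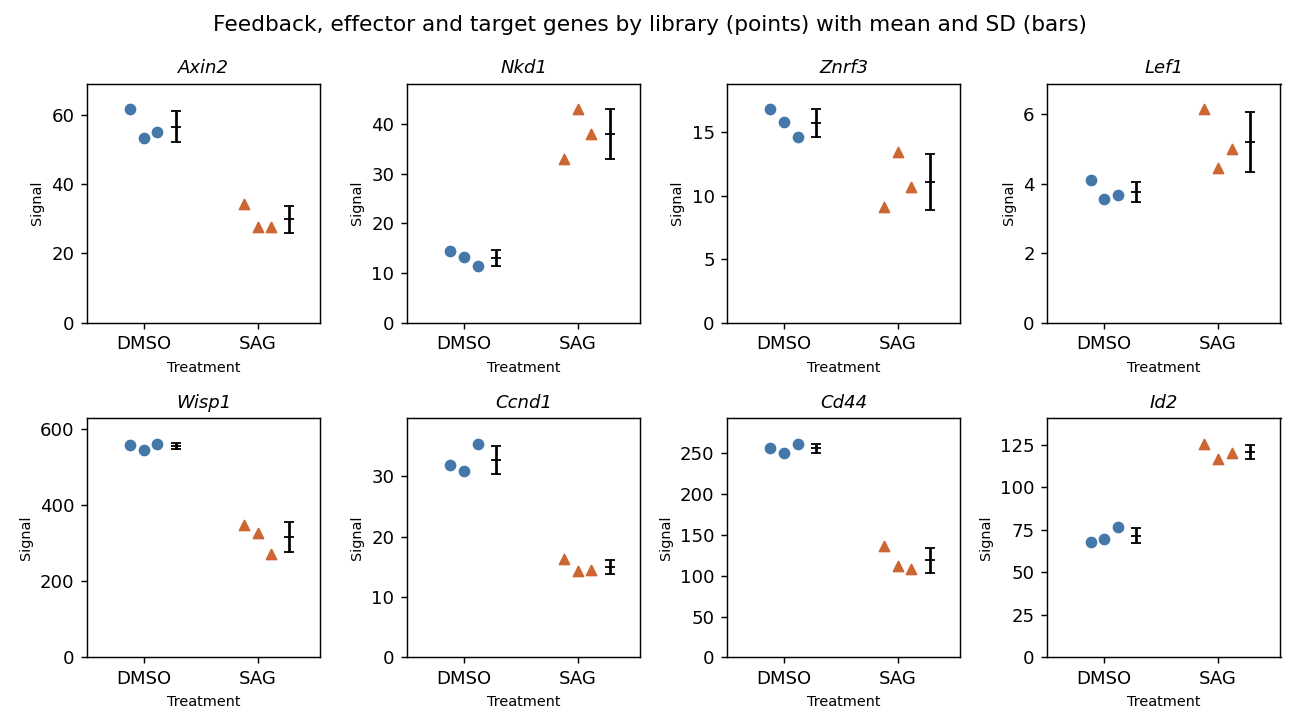
Signal in each library (points) with mean and SD (bars) for Axin2, Nkd1, Znrf3, Lef1, Wisp1, Ccnd1, Cd44 and Id2, each on an axis from 0. Axin2, Wisp1, Ccnd1 and Cd44 are lower with SAG and Nkd1 and Id2 higher, while Znrf3 and Lef1 do not overlap between groups but were not called.

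Markers of other cells in the tissue moved between the same groups. All 7 markers of peritubular myoid and smooth muscle cells fell, and their summed signal was 20897 to 21839 with DMSO and 13169 to 14484 with SAG, with none at 0. Of 8 interstitial progenitor markers 7 rose, from a sum of 366 to 380 to a sum of 997 to 1165, with none at 0. Of 5 tested surface epithelium markers, out of 7 listed, 3 fell. Their summed signal, over all 7, was 19.8 to 30.9 with DMSO and 12.1 to 13.6 with SAG. Of the 3 that fell, Lrrn4 (means of 3.02 and 0.835) passed the filter through its DMSO libraries alone. Markers of the adrenal cortex summed to 1.86 to 2.43 with DMSO and to 4.45 to 73.2 with SAG, SAG replicate 3 being highest. The 2 of 3 tested that rose, Cyp21a1 and Akr1b7, passed the filter through their SAG libraries alone, and mainly through replicate 3. Their part in the changes of the Wnt genes was not tested. Without SAG replicate 3 the log2 fold change was -1.85 for Wnt16, -1.67 for Fzd6, -0.86 for Axin2 and 1.47 for Nkd1. Germ cell, macrophage and erythroid markers summed to at most 0.338, 3.41 and 0.508 in any library, with Dppa3, Mael, Fcgr1 and the beta-globin genes at 0 throughout. Sertoli markers (41.3 to 46.6 and 38.0 to 41.4, with Etd at 0) held no called gene among 4 tested. Endothelial markers (31.8 to 38.1 and 35.2 to 50.2) held none among 3 tested. Most of the Sertoli sum was Sox9 (30.4 ± 3.56 and 24.9 ± 1.67) and Aard (9.73 ± 0.957 and 9.40 ± 1.08). Most of the endothelial sum was Cdh5 (27.8 ± 3.15 and 38.6 ± 8.94). Amh and Pecam1 were among the markers under the filter, so these sums say little about the content of such cells. Of the fetal Leydig markers Lhcgr had no read and Cyp17a1 had 11 reads in all. Insl3 had 30, 11 and 2 reads with DMSO and 0, 1 and 2 with SAG and was not tested. Star stood at 24.4 ± 0.544 with DMSO and at 11.97, 11.2 and 50.7 in SAG replicates 1 to 3. Cyp11a1 stood at 7.51 ± 0.972 with DMSO and at 7.25, 5.61 and 33.9 with SAG. Star and Cyp11a1 overlapped between groups and were not called, SAG replicate 3 being highest in both. Hsd3b1 alone was called, as higher, with 0, 8 and 4 reads against 34, 19 and 240. It passed the filter through its SAG libraries alone.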

How the data were processed

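Whole reads per gene and library had been scaled by the authors to a depth-normalized signal, in 1 deposited table of 24505 rows and 6 columns. The submitters' processing notes name GRCm38 and, as tools, edgeR (version listed as 2.2.1), featureCounts 2.0.0, STAR and Trim Galore 0.6.4. Their roles, the annotation, strand setting and filters are not given in the sources used here. Column sums differ between libraries, so the deposited values are treated as a scaled signal, not as plain CPM. In each column 100% of values were whole multiples of 1 step (tolerance 0.01), which gave back the reads. Columns were matched to samples by treatment and replicate number. The 92 spike-in rows, which held reads in the SAG libraries only, were left out.

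The test was limma 3.58.1 (R 4.3.3; moderated with a mean trend, treatment as its sole term) of log2(signal + 1) for genes with a mean of at least 1, and p-values were adjusted over all genes tested. The fit was also run on simulated counts with the same dispersion in all libraries. The groups here differ in spread, so no support for the calls is drawn from that run. Alternatives were pseudocounts of 0.5 and 0.1, no filter or a filter at 5, scaling by library total, limma without trend, edgeR 4.0.16 and DESeq2 1.42.0 on the recovered reads, a replicate block, thinning to 7693274 reads and each library left out. Named were all tested members, up to 12 called genes of each of 2 further lists, and a fixed core. The members and lists were chosen with earlier results of these data known. Exon lengths and coordinates are from GENCODE M21 (GRCm38), which may differ from the authors' annotation.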

Additional observations from a re-analysis of the deposited data

How the results depend on the processing

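Of the 15 called Wnt genes 13 kept their direction and their call in each of the 16 alternatives in which they were tested, and Sfrp2 and Wnt5b did not. None of the genes for which the alternatives were run was called in the opposite direction. Higher and lower calls among the Wnt genes stayed within 1.5 times of 7 and 8 throughout, from 5 to 8 and from 7 to 10. Over all genes, 1625 rose and 2084 fell, and scaling by library total gave 2477 and 1259, with a median log2 fold change of 0.10 in place of -0.03, and 66.3% in place of 43.8% of calls as higher. In the list of other pathway genes lower calls numbered 5, and 3 without a filter, with scaling by library total and with edgeR. In the target list higher calls numbered 4, and 2 without a filter. With 1 library left out, the calls over all genes ran from 901 to 2463 higher and from 1086 to 3373 lower, the fewest being those lacking DMSO replicate 3 and the most those lacking SAG replicate 3, with 930 and 1093 without DMSO replicate 1 and 969 and 1136 without DMSO replicate 2. The lower pathway calls ran from 3 (without DMSO replicate 1, 2 or 3) to 10 (without SAG replicate 3), and the higher target calls from 2 (without DMSO replicate 1 or 2 or SAG replicate 1 or 2) to 5 (without SAG replicate 3). The cause was not tested. Same-numbered libraries did not deviate together (correlations of -0.0231, 0.0332 and -1.73e-04), and differently numbered ones ran from -0.0327 to 0.0371. Matched and unmatched pairs were thus alike, which gives no sign of pairing by number but does not exclude it. A replicate block gave 1549 higher and 1976 lower calls over all genes and 7 and 8 among the Wnt genes, and among the named genes it changed the calls of Ror1 (limma, adjusted p = 0.0184) and Wls (0.0913). The SAG libraries are 2.67 times shallower on average, which limits genes with few reads such as Wnt6, Wnt5b and Dkk2.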
